A study of Brassica oleracea with 12 samples.

Results

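Leaf tissue that was whitening or white was compared with green leaf tissue of the variegated ornamental kale line 'JC007-2B' (Brassica oleracea), with both leaf ages of the study in 1 fit. The 6 whitened libraries were 3 from the albino stage (S2), in which leaves start to turn white in the middle and keep a green edge, and 3 from the white center of variegated leaves (S3_C). The 6 green libraries were 3 from the green leaf stage (S1) and 3 from the green margin of variegated leaves (S3_S). All 12 libraries of the series were used, and 39777 of the 45325 deposited genes were tested, namely those whose level exceeded 0 in 3 or more libraries. Levels are FPKM, fragments counted per transcript length and per mapped fragments of the library, which corrects for gene length and library size. The 1926 genes above 0 in exactly 2 libraries, just outside that limit, had a median level of 0.0129 FPKM, and the 1402 genes above 0 in exactly 3, just inside it, had 0.0232 FPKM.

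All groups share the genotype of this double-haploid line, and no treatment is given in the labels. The paper states, however, that white appears at S2 once plants have been through a cold spell. S1 and S2 were whole blades sampled without veins at successive stages, whereas S3_S and S3_C were the margin and the center of leaves of the same stage. In the early pair (S1 and S2) colour therefore cannot be told apart from stage or from exposure to low temperature. In the late pair (S3_S and S3_C) colour cannot be told apart from the position in the leaf. Leaves at S2 keep a green edge, so the S2 libraries may also be mixtures of green and white tissue. No label says that the 3 libraries of a group came from separate plants, so the p-values rest on the spread between these libraries. For single genes the fit moderated that spread towards a trend over all genes. In whole tissue, fewer cells of a type and less RNA per cell cannot be told apart.

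Green leaf colour comes from chlorophyll bound to proteins of the thylakoid membrane inside chloroplasts. Photosystem I, photosystem II and their light-harvesting antennae are built from proteins encoded partly in the nucleus and partly in the plastid, and unfinished chloroplasts send signals that lower the expression of nuclear photosynthesis genes. In Arabidopsis, variegated mutants such as var1, var2 and immutans have white sectors because chloroplasts fail to form in part of the cells, and the genes affected include the thylakoid FtsH proteases and a plastid terminal oxidase.

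The libraries were of similar size on the deposited scale, with FPKM sums between 429280 and 461590. Relative depth, read from the smallest step between low values, was between 0.899 and 1.35 of the first S1 library, and did not differ by colour beyond the spread of the libraries (two-sided exact permutation test within ages, p = 0.3). By group it was 1 to 1.31 in S1 and 1.02 to 1.22 in S2, and 0.899 to 1.20 in S3_S and 1.17 to 1.35 in S3_C. The late groups thus overlapped only narrowly, and the part of depth in the number of genes above 0 was not tested. Other features of the libraries did move with colour. The number of genes above 0 was 1564 higher in white than in green tissue (p = 0.005, the smallest this exact permutation test of 400 arrangements can give), with 33912 to 35158 genes in S1, 35496 to 36766 in S2, 35020 to 35477 in S3_S and 36554 to 36992 in S3_C. The 100 most abundant genes held 20.3 to 29.4% of the summed FPKM in S1, 19 to 22.3% in S3_S, 11.8 to 17.0% in S2 and 11.8 to 14.7% in S3_C, a difference of -9.37 percentage points (exact permutation p = 0.005). White tissue thus had a flatter distribution of levels, and median-of-ratios size factors, which centre the bulk of genes, were 0.704 to 1.04 in green and 1.06 to 1.29 in white libraries.

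This shift sets how many genes appear on each side. The colour effect was the mean of the S2 minus S1 and S3_C minus S3_S differences in log2(FPKM + 1), fitted with limma over all 12 libraries, and a gene was called at a Benjamini-Hochberg adjusted p below 0.05 and an absolute difference over 1. A fold on this scale understates the change of genes at low levels. As deposited, 2113 genes were called, of which 1412 were higher in white (3.55% of the genes tested) and 701 were lower (1.76%). The median difference of all genes tested was 0.23, and after scaling to the median of ratios it was 0.01. After scaling, 1524 genes were called, with 357 higher (0.898%) and 1167 lower (2.93%), so that the share of calls on the higher side went from 66.8 to 23.4%. Quantile normalization placed 31.1% of calls on the higher side (439 against 974). The calls shared by the deposited and scaled values were 1044, of which 357 were higher and 687 were lower in white. The counts of called list members below are therefore given on both scales where the scale changed them. Without replicate 3 of S1, 1601 genes were called as deposited, and without replicate 2 of S2 there were 2556.

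Genes of the photosynthetic apparatus were lower in white tissue in both pairs and on both scales. Of the 36 tested genes of the KEGG pathway Photosynthesis, which covers the subunits of both photosystems, the cytochrome complex and electron carriers, 24 fell and none rose, and after scaling 25 fell. Their median difference was -1.62 as deposited and -2.06 after scaling, against 0.23 and 0.01 for all genes. The median was -1.31 in the early and -1.89 in the late pair. With 1 library left out, 18 to 27 of them were called lower. Of 37 genes that the table assigns to photosystem I, 28 fell (29 after scaling), and of 57 assigned to photosystem II, 35 fell (39 after scaling) and none rose. The photosystem II count was 22 without replicate 1 of S2 and 23 without replicate 1 or without replicate 2 of S3_C.

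The largest fall among photosystem genes was that of Bo8g021860, which is annotated by its KEGG orthology number as PsbS, the photosystem II protein that lets leaves shed excess light as heat. Its 3 libraries were at 616, 246 and 295 FPKM in S1 and at 33.5, 36.6 and 52.2 in S2. In the late pair they were at 315, 123 and 118 FPKM in S3_S and at 8.99, 5.45 and 7.25 in S3_C. This gene was chosen for a large fall without overlap in either pair. Its difference was -3.74 ± 0.31 on the log2 scale (SE, limma adjusted p = 0.000645), with -3.12 in the early and -4.37 in the late pair.

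Bo9g017950, annotated as PsaN, a photosystem I subunit on the lumen side, was at 64.5, 28 and 34.6 FPKM in S1 and at 6.76, 3.93 and 17.2 in S2. It was at 67.8, 37.5 and 42.5 FPKM in S3_S and at 0.400, 1.02 and 0.778 in S3_C. It was chosen by the same rule, and its difference was -3.51 ± 0.33 (limma adjusted p = 0.000912). PetC (Bo9g006480), the Rieske iron-sulfur protein of the cytochrome complex, went from 539 ± 339 FPKM in S1 to 126 ± 69.2 in S2 and from 658 ± 124 in S3_S to 88.4 ± 16.4 in S3_C (mean ± SD, n = 3 each), a difference of -2.46 (limma adjusted p = 0.00399). PsaE (Bo8g054500), on the stroma side of photosystem I, fell by 1.89 (limma adjusted p = 0.00503) and PsaO (Bo8g112500), another photosystem I subunit, fell by 1.94 (limma adjusted p = 0.00987), each in all 12 fits with a library left out. PsbP (Bo8g007190), a protein of the oxygen-evolving complex, fell by 2.05 (limma adjusted p = 0.0204), and its call held in 10 of these 12 fits.

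**Figure D1:**
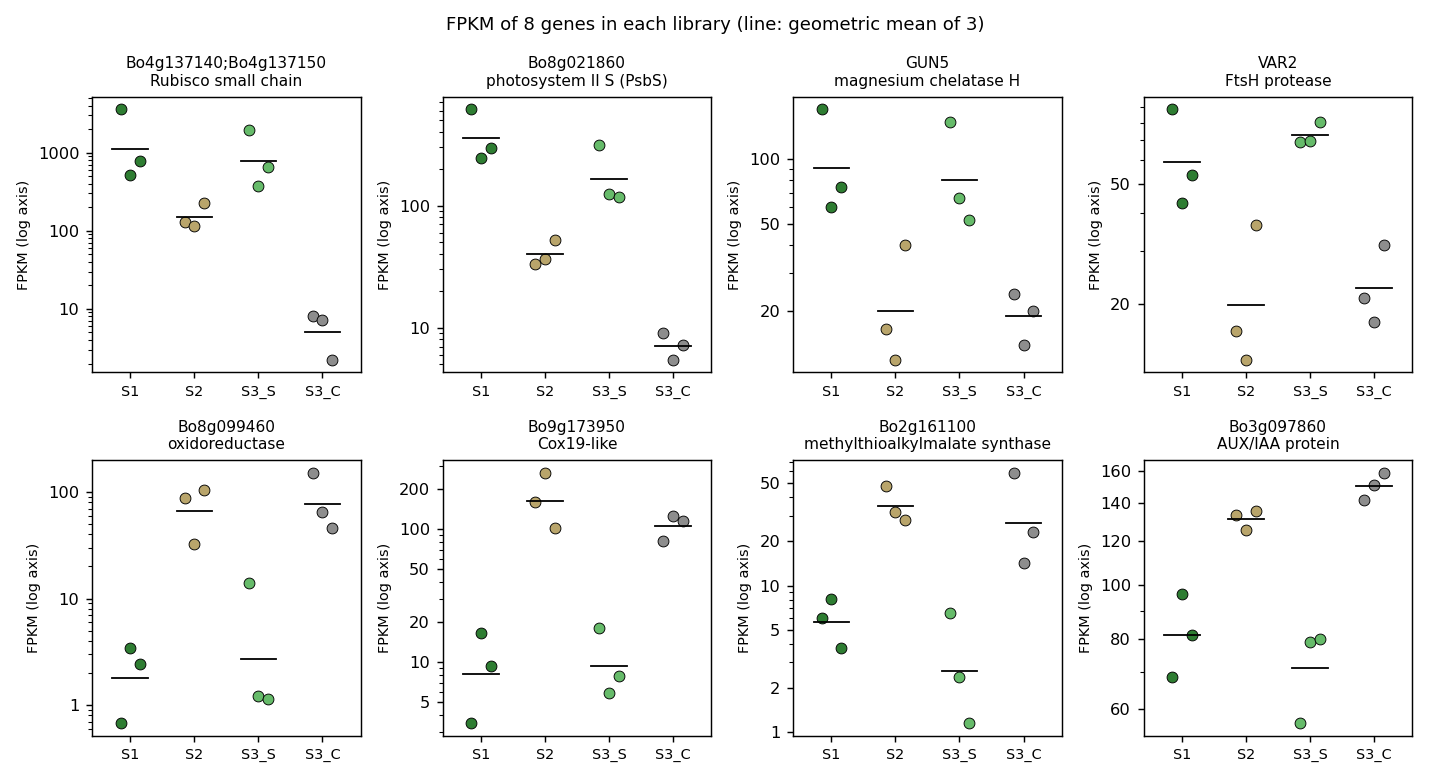
FPKM (log axis) of 8 genes in each of the 3 libraries of S1, S2, S3_S and S3_C, with points for libraries and a line for the geometric mean of 3. In the upper row (Rubisco small chain, PsbS, GUN5 and VAR2) every white library lies under every green library of its pair, and in the lower row every white library lies above, as for Bo8g099460 at 0.677 to 3.46 FPKM in S1 and 32.4 to 106 in S2.

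The antenna, the chlorophyll-binding proteins that collect light, followed the photosystems with more variation between libraries. Of 17 antenna genes tested, 14 fell and none rose on either scale, with a median of -1.78 (-2.25 after scaling), and -1.25 in the early against -2.23 in the late pair. This count was sensitive to single libraries. It was 8 without replicate 1 of S3_C, replicate 2 of S3_C or replicate 3 of S3_S, and 9 without replicate 3 of S1, replicate 1 of S2, replicate 2 of S2 or replicate 1 of S3_S.

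LHCA4, an antenna protein of photosystem I, was at 1820, 762 and 868 FPKM in S1 and 259, 268 and 836 in S2, so that replicate 3 of S2 lay within the range of S1. In the late pair it was at 2078, 1791 and 1872 FPKM in S3_S and 452, 395 and 497 in S3_C, without overlap. Its difference of -1.77 ± 0.56 had a limma adjusted p of 0.0487, and it was called in 1 of the 12 fits that left a library out, where the adjusted p ran from 0.0277 to 0.139. When the fit held replicate as a block within the late pair, whose same-numbered libraries deviated together, LHCA4 was not called (limma adjusted p = 0.0884). LHCB4.1, a minor antenna protein of photosystem II, showed the same picture, with 690 FPKM in replicate 3 of S2 against 207 and 112 in the others, a difference of -1.68 (limma adjusted p = 0.0355, or 0.066 with that block) and a call in 1 of 12 such fits.

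**Figure D2:**
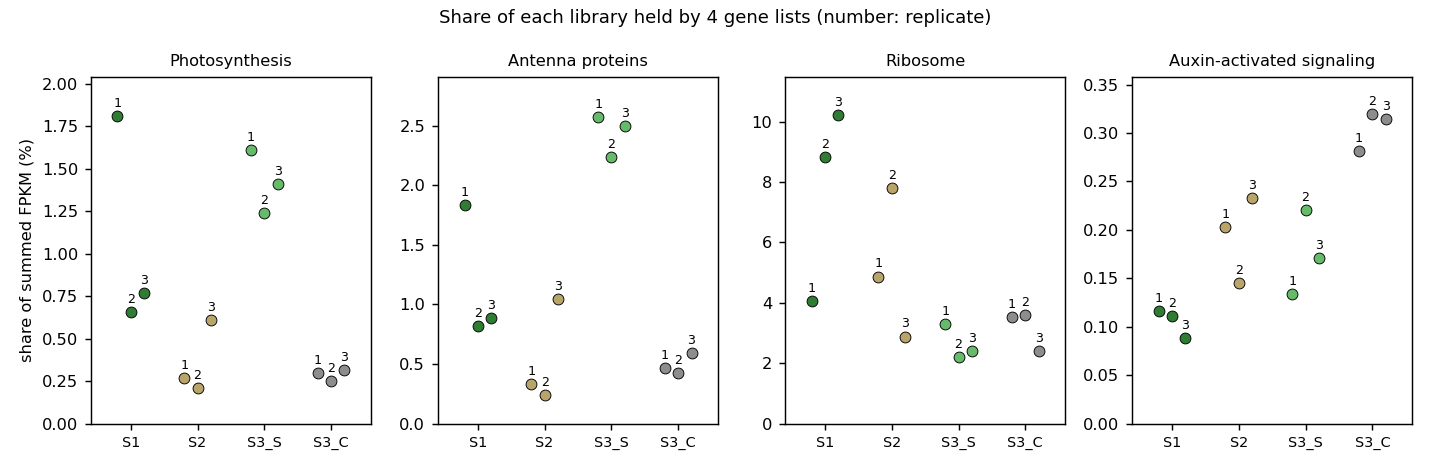
Share of the summed FPKM of each library (%) held by 4 gene lists in S1, S2, S3_S and S3_C, each point a library with its replicate number. Photosynthesis genes held 0.659 to 1.81% in S1 against 0.207 to 0.607% in S2, and 1.24 to 1.61% in S3_S against 0.251 to 0.318% in S3_C.

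Summed over their members, photosynthesis genes held 1.81, 0.659 and 0.768% of FPKM in the S1 libraries and 0.268, 0.207 and 0.607% in S2. In the late pair the shares were 1.61, 1.24 and 1.41% in S3_S and 0.297, 0.251 and 0.318% in S3_C. Neither pair overlapped, although replicate 1 of S1 and replicate 3 of S2 stood above the others of their groups. Antenna genes held 1.83, 0.821 and 0.882% in S1 and 0.328, 0.240 and 1.04% in S2, where replicate 3 of S2 exceeded replicates 2 and 3 of S1, and 2.24 to 2.58% in S3_S against 0.427 to 0.592% in S3_C. Leaves at S2 keep a green edge, and how much green tissue each S2 library held was not measured.

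Genes of carbon assimilation led the decreases. Among the 10 genes with the largest fall whose libraries did not overlap in either pair were 3 genes for the small chain of Rubisco, the enzyme that fixes carbon dioxide. The largest was the row that joins Bo4g137140 and Bo4g137150, at 3598, 513 and 776 FPKM in S1 and 131, 116 and 227 in S2, and at 1962, 374 and 650 in S3_S and 8.18, 7.19 and 2.24 in S3_C. This row had a colour effect of -4.93 ± 0.57 (limma adjusted p = 0.0021), made of -2.89 early and -6.97 late. Bo6g059930 fell by 4.34 (limma adjusted p = 0.00312) and Bo4g144000 fell by 3.58 (limma adjusted p = 0.00528).

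A further small chain gene, Bo4g137200, had the highest level of the Rubisco genes named here, with 5186 to 11160 FPKM in S1, 1007 to 2314 in S2, 4247 to 8429 in S3_S and 746 to 1087 in S3_C. Its libraries stood apart in both pairs too, yet its difference of -2.44 ± 1.33 was not called (limma adjusted p = 0.211). This SE was moderated towards a variance trend over genes of similar level, so it is not the spread of these libraries alone. Whether their own spread would give a call was not tested. Genes of this family are near copies of each other, reads could be placed at up to 20 positions, and the split of reads among members is uncertain.

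The 3 carbonic anhydrase genes among the named genes, whose enzymes interconvert carbon dioxide and bicarbonate, were below 1 FPKM in every library of the white center. Bo5g155090 was at 3652, 172 and 602 FPKM in S1 and 126, 72.9 and 490 in S2, which overlap. It was at 2022, 343 and 1293 FPKM in S3_S and 0.497, 0.447 and 0.649 in S3_C, a difference of -9.30 in the late against -2.12 in the early pair. Its colour effect was -5.71 ± 0.76 (limma adjusted p = 0.00289), and the difference between the pairs was not called for the interaction. CA2 (-4.44, limma adjusted p = 0.00298) also overlapped early and was apart late, with -1.47 and -7.42, and was at 0.365 to 0.776 FPKM in S3_C. Bo1g158950 (-4.58, limma adjusted p = 0.00726) was apart in both pairs, with -3.87 early and -5.29 late, and was at 0.0279 to 0.320 FPKM in S3_C.

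Across the 76 tested genes of carbon fixation, 27 fell and 6 rose as deposited, and 29 fell and 0 rose after scaling. The median of this list was -0.01 (-0.29 after scaling). The list also holds enzymes of general sugar metabolism, and their part in this median was not tested. GAPB, the chloroplast glyceraldehyde phosphate dehydrogenase, fell by 3.05 (limma adjusted p = 0.00291). Of 83 genes of glyoxylate and dicarboxylate metabolism, which includes photorespiration, 26 fell and 2 rose (28 and 0 after scaling). Bo8g030490, a glutamine synthetase, fell by 1.89 (limma adjusted p = 0.00482), from 153 to 529 FPKM in S1 to 64.1 to 96.3 in S2 and from 143 to 282 in S3_S to 48.5 to 50.0 in S3_C.

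The most abundant of the leading genes carried no functional annotation in the table. Bo3g127600, present as 2 rows, was at 7346, 2840 and 5161 FPKM in S1 and 138, 532 and 1064 in S2 in the row of the reference transcript. The same row was at 1321, 215 and 302 FPKM in S3_S and 24.4, 27.0 and 17.9 in S3_C, so that each late group lay below the early group of its colour. Its colour effect was -3.84 ± 0.62 (limma adjusted p = 0.00482), and that of the second row was -3.44 (limma adjusted p = 0.00528). The other leading decreases were Bo8g030530 (-4.06) and the row of Bo5g003040 with Bo5g003050 (-3.66). All 10 leading decreases, from -4.93 to -3.44, were called after scaling and in each of the 12 fits with a library left out.

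Genes of chlorophyll synthesis were lower in fewer cases, and their count depended on the scale. Of 51 genes of porphyrin and chlorophyll metabolism, 10 fell as deposited and 23 after scaling, and none rose. The deposited count was 5 without replicate 1 of S3_S and 6 without replicate 3 of S1, replicate 1 of S2 or replicate 2 of S3_C. GUN5, the H subunit of magnesium chelatase that places magnesium into the porphyrin ring, was at 169, 60.0 and 74.4 FPKM in S1 and 16.5, 11.9 and 40.2 in S2. It was at 148, 66.2 and 52.4 FPKM in S3_S and 24, 14 and 20 in S3_C. White libraries were lower throughout each pair, with a difference of -2.08 ± 0.38 (limma adjusted p = 0.00729).

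Bo6g072440, the cyclase that closes the fifth ring of chlorophyll, fell from 162 ± 48.8 to 62.1 ± 17.2 FPKM early and from 170 ± 44.5 to 56.1 ± 5.44 late (mean ± SD, n = 3), a difference of -1.46 (limma adjusted p = 0.00358). PORB, a protochlorophyllide reductase, had -1.25 (limma adjusted p = 0.0455) and kept its call in 3 of 12 fits with a library left out. CHLG, chlorophyll synthase (ATG4 in the table), had -0.69 as deposited, which was not called, and -1.16 after scaling, which was (limma adjusted p = 0.00832). Of the 14 Arabidopsis chlorophyll synthesis loci listed, 7 had a tested gene, and 2 of these fell (5 after scaling). The 2 became 1 without replicate 2 or 3 of S1, replicate 1 or 2 of S2, any library of S3_C, or replicate 1 or 2 of S3_S. None of 5 tested genes for chlorophyll breakdown was called on either scale.

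Carotenoid genes, whose products protect the photosystems and feed abscisic acid synthesis, had few calls as deposited and more after scaling. In the KEGG pathway of 25 tested genes, 1 fell (4%, against 1.76% of all genes) and 1 rose (4%, against 3.55%). After scaling 4 fell (16%, against 2.93% of all genes) and 0 rose. The gene that fell as deposited was Bo9g161470, annotated as phytoene synthase, the first committed step. It was at 19.2, 9.69 and 11.5 FPKM in S1 and 2.59, 9.05 and 7.67 in S2, and at 27.2, 20 and 21.4 in S3_S and 2.24, 3.58 and 6.13 in S3_C. The groups were apart in both pairs, narrowly so in the early pair, and the difference was -1.68 ± 0.30 (limma adjusted p = 0.00667). The gene that rose lost its call without replicate 1 of S1, replicate 3 of S1, replicate 1 of S2, replicate 2 of S3_C or replicate 1 of S3_S.

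Of 13 genes known from variegated or albino Arabidopsis mutants, 7 had a tested gene in the table, and 3 of these fell (4 after scaling). VAR2, a subunit of the thylakoid FtsH protease that removes damaged photosystem II proteins, was at 88.7, 43.2 and 53.6 FPKM in S1 and 16.3, 13.1 and 36.5 in S2. It was at 69.1, 69.6 and 80.3 FPKM in S3_S and 20.9, 17.4 and 31.4 in S3_C. The white libraries lay under the green ones in both pairs (-1.59 ± 0.27, limma adjusted p = 0.00598), on a row that also carries the neighbouring locus Bo4g053780.

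FTSH1, of the same protease complex, was at 83.7, 25.9 and 33.8 FPKM in S1, 13.3, 10.2 and 23.8 in S2, 59.8, 41.0 and 44.5 in S3_S and 23.1, 18.6 and 19.3 in S3_C. It too was apart in both pairs, with a difference of -1.32 ± 0.29 (limma adjusted p = 0.0137). PSB29, the THF1 protein needed for photosystem II and thylakoid formation, fell by 1.06 (limma adjusted p = 0.0173) with a call in 9 of 12 fits with a library left out. IM, the plastid terminal oxidase whose loss gives the immutans phenotype, had -0.58 and was not called as deposited (limma adjusted p = 0.127), whereas after scaling it had -1.03 (limma adjusted p = 0.0399). CYO1 (-0.44), ATASE2 (-0.08) and CRL (0.13) were not called on either scale.

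Of 16 chloroplast regulators listed, 4 had a tested gene. SIGA, a sigma factor of the plastid RNA polymerase, had -1.12 (limma adjusted p = 0.046, or 0.06 with the replicate block in the late pair), but the call was lost in 10 of the 12 fits with a library left out, those without replicate 2 of S1 and without replicate 3 of S2 being the exceptions. SIGF had -0.59 as deposited (not called) and -1.04 after scaling (limma adjusted p = 0.0096), and SIGC (-0.25) and PIL5 (0.63) were not called on either scale. Over all 763 tested genes that the table places in the chloroplast, 145 fell and 12 rose (243 and 3 after scaling), with a median of -0.32 (-0.74 after scaling), and 137 had libraries lower in white without overlap in both pairs. For all genes tested this last pattern held for 616 (1.55%).

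Fewer of the genes higher in white could be placed in a process. The leading gene was Bo8g099460, annotated to oxidoreductase activity, at 0.677, 3.46 and 2.42 FPKM in S1 and 87.1, 32.4 and 106 in S2. It was at 13.9, 1.22 and 1.15 FPKM in S3_S and 152, 65.4 and 46.1 in S3_C. Its difference was 4.38 ± 0.55 (limma adjusted p = 0.00258), nearly the same early (4.53) and late (4.24).

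The assembled transcript MSTRG.35049, which has no name, was at 1.19 to 2.70 FPKM in S1, 54.4 to 157 in S2, 10.6 to 18.9 in S3_S and 95.0 to 190 in S3_C, a rise of 4.10 ± 0.28 (limma adjusted p = 0.000221). Bo9g173950, a Cox19-like protein of a family that in yeast serves copper delivery to cytochrome oxidase, was at 3.48, 16.6 and 9.36 FPKM in S1 and 161, 267 and 102 in S2, and at 18.0, 5.82 and 7.91 in S3_S and 81.4, 126 and 116 in S3_C. Its difference was 3.75 ± 0.38 (limma adjusted p = 0.00123). Others of the 10 leading increases were a sulfotransferase on the row of Bo2g137150 and Bo2g137140 (3.37), the glycosyltransferase Bo8g040680 (3.21), and Bo8g059130 (3.41), Bo4g038600 (3.18) and Bo3g086670 (3.15). All 10, from 3.15 to 4.38, were called after scaling and in each of the 12 fits with a library left out.

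Glucosinolates are sulfur-rich defence compounds of the cabbage family, made from chain-elongated amino acids. Of 15 tested genes of their synthesis, 5 rose (33.3%, against 3.55% of all genes) and none fell. After scaling 2 rose (13.3%, against 0.898% of all genes). Bo2g161100, annotated as methylthioalkylmalate synthase, which elongates the methionine chain, was at 6.03, 8.07 and 3.73 FPKM in S1 and 48.0, 31.9 and 28 in S2. It was at 6.45, 2.36 and 1.15 FPKM in S3_S and 59.0, 14.2 and 23.1 in S3_C. The groups were apart in both pairs and the difference was 2.66 ± 0.39 (limma adjusted p = 0.00356), or 2.23 after scaling (limma adjusted p = 0.00753).

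Bo5g113720, annotated as a transaminase of this pathway, was higher by 2.74 ± 0.58 (limma adjusted p = 0.0122) and kept its call after scaling (limma adjusted p = 0.0433). CYP83A1, a cytochrome P450 of the core pathway, differed between the pairs, at 7.39, 16.2 and 6.58 FPKM in S1 and 5.44, 7.25 and 20.9 in S2 but at 0.0962, 1.36 and 0.307 in S3_S and 11.2, 15.2 and 10.2 in S3_C. Its colour effect of 1.57 (limma adjusted p = 0.0135) came from the late pair (3.12 against 0.03), was not called after scaling (limma adjusted p = 0.0552), and its interaction of 3.09 did not pass (limma adjusted p = 0.134).

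Auxin genes were called in the higher direction alone. Of 84 tested genes of the auxin-activated signaling pathway, 17 rose (20.2%, against 3.55% of all genes) and none fell (1.76% of all genes). After scaling 5 rose (5.95%, against 0.898% of all genes) and none fell (2.93% of all genes). Their median difference was 0.69 (0.33 after scaling) against 0.23 (0.01) for all genes. The list held 0.0887 to 0.116% of the summed FPKM in S1, 0.145 to 0.233% in S2, 0.134 to 0.221% in S3_S and 0.281 to 0.320% in S3_C, without overlap in either pair. Bo3g097860, an AUX/IAA repressor of auxin responses and among the highest expressed of the list, was at 68.4, 96.3 and 81.5 FPKM in S1 and 133, 126 and 136 in S2, and at 56.6, 79.1 and 79.9 in S3_S and 142, 151 and 159 in S3_C. It was apart in both pairs, but its difference of 0.88 ± 0.16 was under the threshold of 1 (limma adjusted p = 0.0072) and after scaling it was 0.41 (limma adjusted p = 0.123). SHY2, another AUX/IAA repressor, picked here after its values were seen, rose by 1.58 (limma adjusted p = 0.00317), with mean levels of 0.734 FPKM in S1, 3.89 in S2, 0.734 in S3_S and 4.59 in S3_C, and by 1.29 after scaling (limma adjusted p = 0.00508). Of the 259 genes of plant hormone signal transduction, which includes these, 25 rose (9.65%, against 3.55% of all genes) and none fell. After scaling 8 rose (3.09%, against 0.898% of all genes) and 1 fell.

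In the plant-pathogen interaction pathway, 15 of 138 tested genes rose and none fell (5 and 1 after scaling). The rises were 10.9% of the list, against 3.55% of all genes, and 3.62% after scaling, against 0.898%. In the early pair 25 of its genes were called higher (18.1%, against 4.7% of all genes) and in the late pair 3 were (2.17%, against 2.07%), and the difference between the pairs was not tested for the list. The median difference was 0.66 early and 0.25 late. Bo1g103630, the member with the largest colour effect and chosen for that, had mean levels of 1.39 FPKM in S1, 13.3 in S2, 3.6 in S3_S and 36.4 in S3_C (2.74, limma adjusted p = 0.00251). ATCNGC3, a cyclic nucleotide-gated channel also chosen after its values were seen, had 1.37, 25.8, 7.69 and 5.66 FPKM in S1, S2, S3_S and S3_C, with 3.30 in the early and -0.15 in the late pair. Its interaction of -3.45 did not pass (limma adjusted p = 0.169), nor did that of any other gene in the 40 lists. Bo3g083790, annotated as a homologue of the immune regulator RIN4, had 1.38 as deposited (limma adjusted p = 0.011) and 0.92 after scaling (limma adjusted p = 0.0868).

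The remaining lists stand beside 3.55% higher and 1.76% lower among all genes tested (0.898 and 2.93% after scaling). In chloroplast organization 9 of 50 genes fell (18%), and 15 after scaling (30%), both above those shares. In oxidative phosphorylation 1 of 106 rose and 1 fell (0.943% each), with 0 and 1 after scaling. In leaf senescence 1 of 23 rose and 2 fell (0 and 2 after scaling). In the circadian rhythm 1 of 40 rose and 1 fell (0 and 2 after scaling, and as deposited 6 calls without replicate 2 of S2 and 4 without replicate 2 of S3_S), in flavonoid biosynthesis 1 of 32 rose and after scaling 1 fell, and in fatty acid biosynthesis none of 39 was called as deposited and 1 fell after scaling. The flavonoid count was 2 without replicate 1 of S1 or replicate 2 of S2. In phenylpropanoid biosynthesis 10 of 146 genes rose (6.85%) and 1 fell, and after scaling 4 rose (2.74%) and 2 fell. As deposited there were 7 calls in all without replicate 3 of S1. In starch and sucrose metabolism 7 of 130 rose and 3 fell, and the counts turned to 3 and 7 after scaling, while without replicate 3 of S2 there were 16 calls as deposited. In nitrogen metabolism 3 of 45 rose (6.67%) and 5 fell (11.1%), and after scaling 0 rose and 6 fell (13.3%). Ribosome biogenesis had 4 rises in 76 genes and none after scaling. One of these was Bo4g115530, the assembly factor eIF6, with 1.48 as deposited (limma adjusted p = 0.018) and 1.01 after scaling (limma adjusted p = 0.129). Protein processing in the endoplasmic reticulum had 5 rises in 178 genes (2.81%, under the 3.55% of all genes, and 11 calls without replicate 3 of S2), and 2 rises and 1 decrease after scaling. Response to cold had 6 decreases in 52 genes (11.5%), 12 after scaling (23.1%), and no rise on either scale. The deposited count became 3 calls without replicate 1 of S2, replicate 2 or 3 of S3_C, or replicate 1 of S3_S. Among the highest expressed members of this list, the photosynthesis genes LHCA4, GAPB and Bo4g101180, a photosystem I antenna gene, were called lower. COR78, a cold and drought induced gene, was at 237 to 1152 FPKM in S1, 703 to 1691 in S2, 388 to 781 in S3_S and 1251 to 1870 in S3_C, and its difference of 1.14 was not called (limma adjusted p = 0.21).

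**Figure D3:**
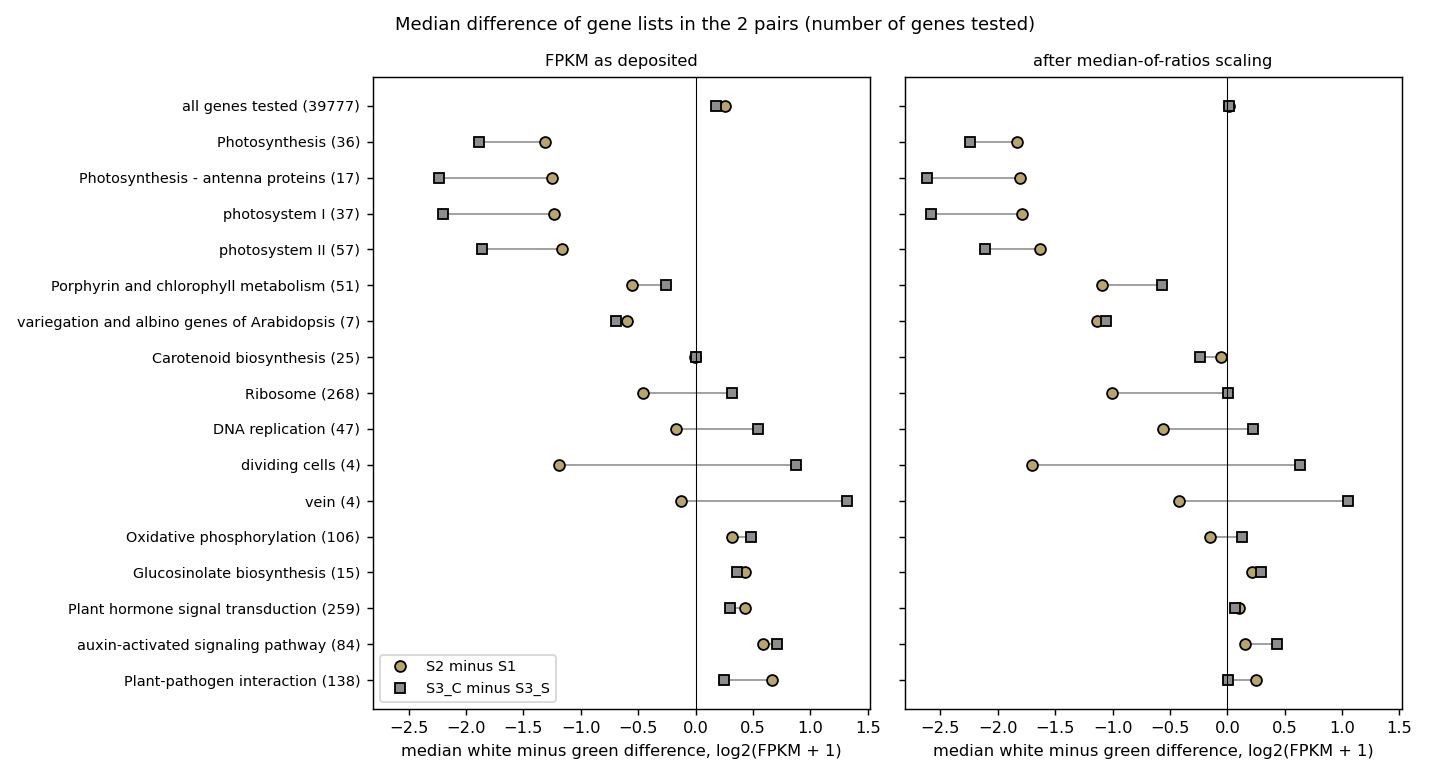
Median white minus green difference, in log2(FPKM + 1), of gene lists in the early pair (circles, S2 minus S1) and the late pair (squares, S3_C minus S3_S), as deposited on the left and after median-of-ratios scaling on the right, with the number of genes tested in brackets. Photosynthesis lists lie left of 0 in both pairs on both panels, while Ribosome lies at -0.46 early and 0.32 late as deposited, and at -1.01 and 0.01 after scaling.

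The early and late pairs share no library. Their differences may still not be independent, since same-numbered libraries of S2 and S3_C deviated from their group means together, with correlations of 0.228 to 0.514 over 25074 genes. In the early pair 2456 genes were called, 1869 higher (4.7% of those tested) and 587 lower (1.48%) in S2. In the late pair 1249 were called, 825 higher (2.07%) and 424 lower (1.07%) in S3_C. Both pairs called 310 genes, of which 187 were higher and 119 lower in both and 4 went opposite ways. Genes called in both the same way were 12.5% of the early calls and 24.5% of the late calls.

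Directions were shared more often than calls. Of the 1869 genes higher in S2, 85.3% were also higher in S3_C, where 69.2% of all genes were higher, and of the 587 lower in S2, 82.6% were lower in S3_C, against 30.1% of all genes. After scaling, 67.9% of 502 early increases and 86.5% of 1147 early decreases kept their direction in the late pair, against 52.2 and 47.0% of all genes. In the reverse direction, 89.5% of the 825 late increases and 77.1% of the 424 late decreases had the same sign in the early pair, against 73.0 and 26.2% of all genes. Across all genes the 2 differences had a Pearson correlation of 0.33 (0.28 after scaling). This is a description across genes, which are not independent replicates.

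Libraries were apart in both pairs and in the same direction for 3918 genes higher in white (9.85%) and 616 lower (1.55%), or for 924 (2.32%) and 1363 (3.43%) after scaling. Libraries were apart in opposite directions for 294 genes (0.739%), of which 187 were higher in S2 and lower in S3_C, 107 were the reverse, and 33 differed by more than 1 in both pairs. Of the 2113 genes called, 1222 were apart the same way in both pairs, 843 of them higher and 379 lower in white.

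**Figure D4:**
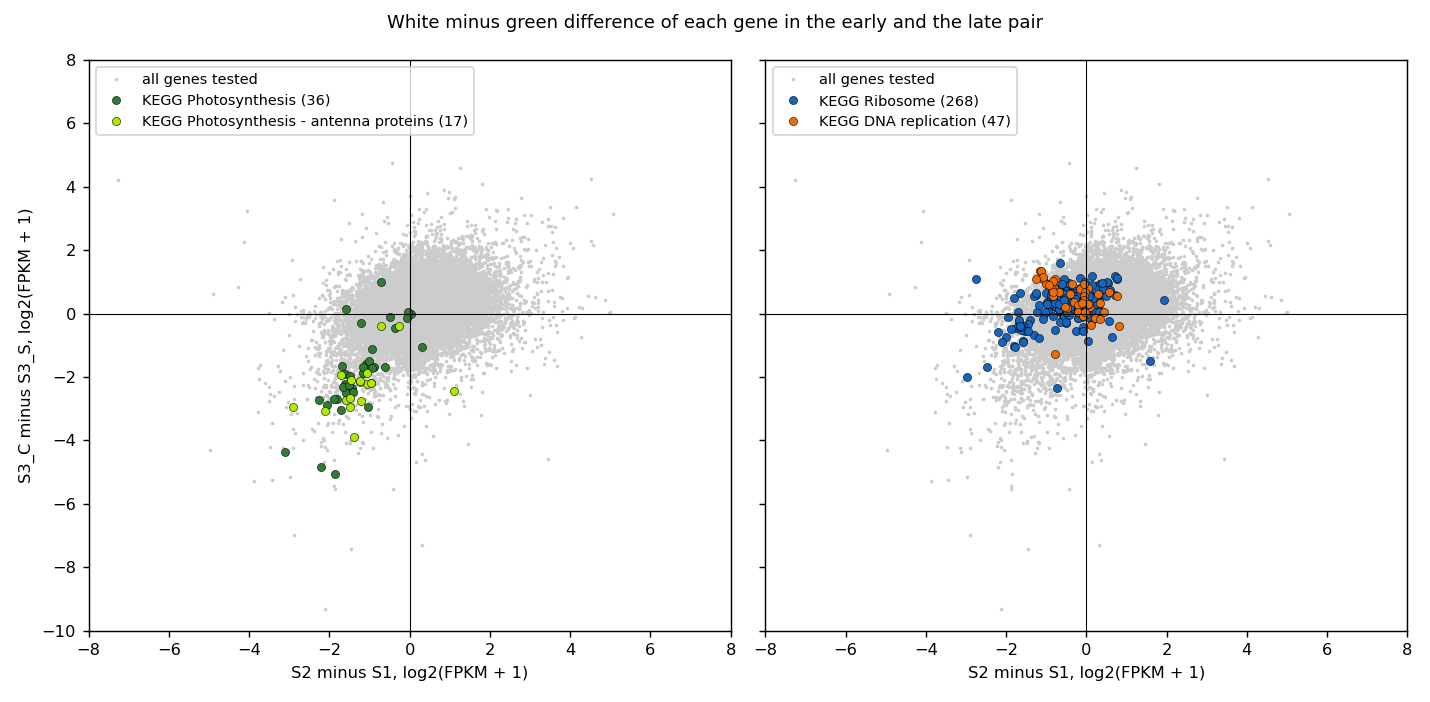
White minus green difference of each gene in log2(FPKM + 1), in the early pair (x axis, S2 minus S1) and the late pair (y axis, S3_C minus S3_S), with each point a gene. On the left, the 36 photosynthesis and 17 antenna genes lie mostly at the lower left, and on the right 163 of the 268 ribosome genes lie at the upper left, lower in the early and higher in the late pair.

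The ribosome, DNA replication and dividing cell lists had medians of opposite sign in the 2 pairs as deposited, and no gene of these lists was called for the interaction. The pattern was not particular to them. Medians were also negative early and positive late for the flavonoid (-0.04 and 0.46), secondary cell wall (-0.10 and 0.78) and vein lists (-0.12 and 1.32). Of 268 ribosome genes, 163 (60.8%, against 14.5% of all genes) were lower in S2 than in S1 and higher in S3_C than in S3_S, with medians of -0.46 and 0.32 as deposited. After scaling the medians were -1.01 and 0.01, so that the direction of the late pair depended on the scale. In the colour effect 17 ribosome genes fell (6.34%, against 1.76% of all genes) and none rose. After scaling 23 fell (8.58%, against 2.93% of all genes) and 0 rose. As deposited the decreases were 8 without replicate 1 of S3_S, with 2 rises. They were 9 without replicate 2 of S3_C, and 11 without replicate 3 of S1, with 1 rise. RPS1 (-1.42, limma adjusted p = 0.00277) and RPL27 (-1.41, limma adjusted p = 0.0077), ribosomal proteins placed in the chloroplast by the table and named here after their values were seen, were among these 17. Bo8g025780, described as ribosomal protein L21, was at 440, 393 and 442 FPKM in S1, 164, 132 and 149 in S2, 305, 140 and 191 in S3_S and 176, 128 and 115 in S3_C. It was apart in the early pair and overlapped in the late pair (-1.03, limma adjusted p = 0.0193), with a call in 8 of 12 fits with a library left out. Among the 16 ribosome genes annotated to chloroplast or plastid, 4 fell, and their medians were -0.53 early and -0.21 late. The other 252 held 13 decreases, with medians of -0.44 early and 0.34 late.

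The ribosome share of summed FPKM was 4.07, 8.82 and 10.2% in S1, 4.87, 7.80 and 2.88% in S2, 3.31, 2.22 and 2.42% in S3_S and 3.52, 3.6 and 2.4% in S3_C. The groups overlapped in both pairs. In DNA replication, 30 of 47 genes (63.8%, against 14.5% of all genes) were lower early and higher late (medians -0.17 and 0.54, or -0.56 and 0.23 after scaling), and 1 gene was called lower in the colour effect on each scale. As deposited it was not called without replicate 1 of S1, replicate 1 of S2 or replicate 1 of S3_S.

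Markers of dividing cells had medians of -1.19 early and 0.87 late. Of the 7 loci of this list, 4 had a tested gene. PCNA1, the sliding clamp of DNA polymerase, was at 5, 32.4 and 25.3 FPKM in S1, 12.7, 12.2 and 2.03 in S2, 1.87, 0.377 and 0.389 in S3_S and 5.58, 3.92 and 0.809 in S3_C. The groups overlapped in both pairs, and neither its colour effect (0.03, limma adjusted p = 0.98) nor its interaction (2.23, limma adjusted p = 0.434) passed. The summed level of the 5 genes matched to the list, of which 4 were tested, was 49.6 to 128 FPKM in S1 and 21.5 to 44.6 in S2. In the late pair it was 17.7 to 31.3 FPKM in S3_S and 20.1 to 28.2 in S3_C. CYC1, a mitotic cyclin, was lower in the early pair (-1.26, limma adjusted p = 0.00845). In the colour effect none of the 4 tested genes was called as deposited, and CYC1 was called lower after scaling (-1.26, limma adjusted p = 0.00214). The part of dividing cells in the other early differences was not tested.

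Vein markers were higher in the white center than in the margin. Of 12 loci listed 4 had a tested gene, and their summed level was 7.56 to 13.1 FPKM in S1, 7.51 to 12.8 in S2, 2.23 to 3.81 in S3_S and 10.5 to 15.5 in S3_C. In the late pair 3 of the 4 were called higher in S3_C, among them XCP1, a xylem peptidase, with 1.61 (limma adjusted p = 0.026) and CESA4, a cellulose synthase of secondary walls, with 1.24 (limma adjusted p = 0.0181), and 1 was called after scaling. In the colour effect none was called, and 1 was called without replicate 1 of S3_S. None of the 4 was at 0 in any group mean, although S1 and S2 were sampled without veins. The center held more RNA of xylem genes than the margin, and the part of vein tissue in the late differences was not tested. No mesophyll or epidermis marker could be matched to the table, and the guard cell list had 1 gene, with 0.535 to 0.948 FPKM in S1, 0.900 to 1.39 in S2, 0.880 to 1.96 in S3_S and 1.11 to 1.80 in S3_C.

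The interaction called 19 genes (0.0478% of those tested), those whose colour difference itself differed between early and late leaves in the same limma fit. The late minus the early difference was positive for 6 and negative for 13, and 9 of the 19 were also called for colour. The count rested on single libraries. It was 298 without replicate 1 of S3_S, 224 without replicate 1 of S1, 83 without replicate 2 of S2, 66 without replicate 3 of S2, 10 without replicate 1 of S2, 9 without replicate 3 of S1 or replicate 2 of S3_C, and 6 without replicate 1 of S3_C. A fit blocked by replicate within the late pair called 7 genes, and a fit blocked in both pairs called 4. All 19 were called after scaling and also without replicate 1 of S3_S and without replicate 1 of S1, and 7 of them had a mean above 1 FPKM in at least 2 groups. At an unadjusted p below 0.05 there were 5036 genes for the interaction and 14348 for colour.

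The largest interaction was that of Bo8g089540, a plant protein of unknown function, at 30.6, 21.9 and 6.44 FPKM in S1 and 11.9, 17.1 and 43.7 in S2. In variegated leaves it was at 156, 154 and 207 FPKM in the green margin, and at 0, 0.114 and 0.180 in the white center. Early groups overlapped and late groups were far apart, with differences of 0.32 and -7.29 and an interaction of -7.61 (limma adjusted p = 0.00868), called in all 12 fits with a library left out and not with the block in the late pair (limma adjusted p = 0.0523).

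Bo6g080750, without a description, was at 41.9, 36.3 and 49.5 FPKM in S2 and at 0.0619 to 0.995 FPKM in the other 9 libraries. It thus marked S2 and not S3_C, with an interaction of -4.43 (limma adjusted p = 0.00144), again called in all 12 such fits. MSTRG.13656 was at 3.48 to 8.90 FPKM in S1 and at 132 to 342 in the 9 later libraries, so the early difference of 5 had no counterpart in the late pair (0.04), and the interaction of -4.96 (limma adjusted p = 0.0291) was called in 8 of 12 such fits. MSTRG.32559 had the same shape, with 0.2 to 1.02 FPKM in S1 and 15.1 to 41.4 later (-4.22, limma adjusted p = 0.0291, 8 of 12). Bo1g005360, a PQ-loop membrane protein, was at 0.571 to 1.11 FPKM in S1, 16.6 to 36.9 in S2, 30.1 to 137 in S3_S and 14.4 to 32.1 in S3_C, higher in S2 than in S1 by 3.68 and at -1.64 in the late pair (interaction -5.32, limma adjusted p = 0.0392, 6 of 12).

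**Figure D5:**
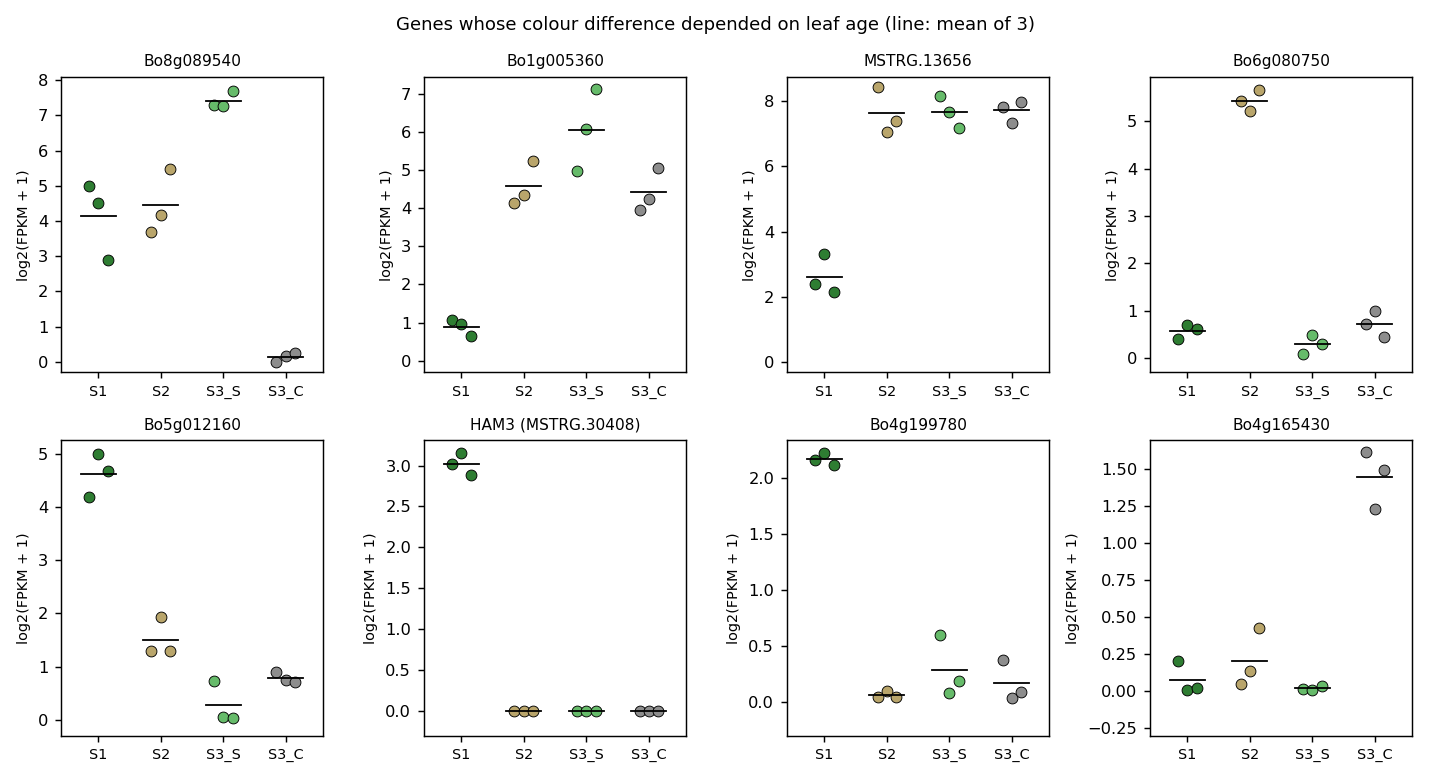
Level in log2(FPKM + 1) of 8 genes called for the interaction in each of the 3 libraries of S1, S2, S3_S and S3_C, with points for libraries and a line for the mean of 3. Bo8g089540 is high in S3_S (154 to 207 FPKM) and near 0 in S3_C, Bo6g080750 is high in S2 alone (36.3 to 49.5 FPKM), and HAM3 is above 0 in S1 alone (6.40 to 7.87 FPKM).

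Of the 5 largest positive interactions, 4 were genes highest in S1. HAM3, a GRAS transcription factor of a family that in Arabidopsis maintains meristems, was at 7.12, 7.87 and 6.40 FPKM in S1 and was listed at 0 in the other 9 libraries on the row of its reference transcript (interaction 3.02, limma adjusted p = 0.000146). A second row of this name, an assembled transcript, was at 0.0524 to 2.09 FPKM in all 12 libraries, so the listed zeros may not be those of the gene. Bo4g139500 was likewise above 0 in S1 alone, at 3.43, 6.04 and 9.85 FPKM (2.80, limma adjusted p = 0.0364, called in 5 of 12 fits with a library left out). Bo5g012160 was at 17.2 to 31.2 FPKM in S1, 1.44 to 2.82 in S2 and 0.0289 to 0.862 in the late libraries (3.63, limma adjusted p = 0.0291, 6 of 12), and Bo4g199780 at 3.35 to 3.68 FPKM in S1 and 0.0271 to 0.511 later (1.99, limma adjusted p = 0.018, 10 of 12). Bo4g165430 alone of these 5 was a gene of the white center, at 1.35 to 2.06 FPKM in S3_C and 0.00598 to 0.344 elsewhere (1.3, limma adjusted p = 0.0457, 5 of 12). With the block in the late pair, Bo5g012160 (limma adjusted p = 0.082) and MSTRG.13656, MSTRG.32559, Bo4g139500 and Bo4g165430 (limma adjusted p = 0.102 each) were not called.

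The 3 genes of the interval to which the leaf variegation locus of this line was mapped were not called for colour or interaction. Bo3g002080 was at 0.0399, 0.0611 and 0.0741 FPKM in S1 and 0.137, 0.143 and 0.158 in S2, and at 0.612, 0.696 and 0.393 in S3_S and 0.120, 0.241 and 0.151 in S3_C. It was apart in both pairs in opposite directions at these low levels, by 0.11 early and -0.42 late, and its colour effect was -0.15 (limma adjusted p = 0.08). No library of Bo3g002080 exceeded 0.696 FPKM, so a colour effect over 1 on the log2(FPKM + 1) scale could not arise. The missing colour call therefore does not tell whether the level of this gene changed. Bo3g002070 was at 3.34 to 6.81 FPKM in S1, 3.03 to 8.25 in S2, 8.32 to 13.8 in S3_S and 5.91 to 10.5 in S3_C, with overlap in both pairs (-0.08, limma adjusted p = 0.857). Bo3g002090 was between 0.0626 and 1.84 FPKM in all libraries (0.01, limma adjusted p = 0.983).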

How the data were processed

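Poly(A) RNA of 12 leaf libraries was sequenced in pairs on an Illumina HiSeq 4000. The authors aligned reads with HISAT to the Ensembl Plants release 38 genome, with up to 2 mismatches and 20 alignments per read, assembled transcripts with StringTie and deposited FPKM per gene; the submitters' notes name HISAT2 2.0 and StringTie 1.3.0. FPKM hold no counts, so counting error could not be modelled, and no scaling between libraries after FPKM is given in the sources used here. Groups were taken from the sample titles.

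Log2(FPKM + 1) values were fitted with limma 3.58.1 (R 4.3.3, variance trend) as 4 group means, and p-values were adjusted by Benjamini-Hochberg over all 39777 genes. The fit was also run on simulated data. The simulated libraries were independent and held no general shift between colours, so that run does not cover these features of the data. Single library values were compared with two-sided exact permutation tests within ages (scipy 1.17.1). Replicate numbers did not pair S1 with S2 (correlations of deviations -0.394 to 0.207); for S3_S with S3_C they were 0.115 to 0.471 in every pair, so that pair was also fitted with a block, and for S2 with S3_C, which are not compared with each other, they were 0.228 to 0.514.

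Named were the 10 largest colour effects in each direction among called genes apart in both pairs, the 5 largest interactions in each direction, up to 4 highest expressed members of each of 40 lists, all tested regulator and variegation genes, and the mapped interval. Genes and lists were chosen with earlier results of these data known. Lists came from KEGG and GO terms of the table and from Arabidopsis loci, of which few matched. Promoter sequences were not used here, since no table could be matched to these genes.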

Additional observations from a re-analysis of the deposited data

Results flagged for a closer look

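Among the interactions, 10 drew attention because the white minus green difference of the late pair differed from that of the early pair in the limma fit itself. They were the 5 largest in each direction among the 19 called. The negative ones were Bo8g089540 (-7.61), Bo1g005360 (-5.32), MSTRG.13656 (-4.96), Bo6g080750 (-4.43) and MSTRG.32559 (-4.22), and the positive ones were Bo5g012160 (3.63), HAM3 (3.02), Bo4g139500 (2.8), Bo4g199780 (1.99) and Bo4g165430 (1.3), all as late minus early differences in log2(FPKM + 1). Of these 10, 3 were called in all 12 fits with a library left out (Bo8g089540, Bo6g080750 and HAM3), 10 after median-of-ratios scaling, 2 with the replicate number as a block and 4 with that block in S3_S and S3_C alone. For HAM3 and Bo4g139500 the value rests on a row listed at 0 in 9 libraries and is no measure of fold. Groups of 3 libraries were too small to single out an outlying library.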

How the results depend on the processing

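The colour effect called 2113 genes, and between 1413 and 2612 under scaling, quantile normalization, other filters, the additive model, either block or the study's threshold. A pseudocount of 0.1 gave 4564. An ordinary linear model with a library-size covariate gave 0, with 2222 genes at an unadjusted p below 0.05. That covariate was higher in every white than in every green library of its pair. With a library left out the count was 1601 to 2556. The interaction called 19 genes, 49 with the pseudocount of 0.1, 11 with no filter on low values, 37 after median-of-ratios scaling, 30 after quantile normalization, 3 in the linear model with the covariate and 3012 at the study's threshold of unadjusted p. With the replicate block it called 4, and with the block in S3_S and S3_C alone, an alternative added after seeing the data, it called 7. These blocks gave 2191 and 2026 colour calls, and the late block ended 12 calls among named values and changed no other of their calls. Leaving out single libraries gave 6 to 298 interaction calls, and leaving out replicate 1 of both S1 and S3_S, also added later, gave 515 and 1641 colour calls. In the model with the covariate the sign turned for CYP83A1 (-0.61), Bo3g083790 (-0.070) and GAMMA-VPE (-0.63), and 59 other named values lost their call. The cause was not tested.

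Scaling ended 5 and added 6 calls among named values, and changed the count of 17 of 38 lists by over 1.5 times. Depth limits low genes, whose FPKM carry no error of their own. The promoter description was not run.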

Other observations

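Libraries of different groups deviated from their group means together. Over 25074 genes, replicate 1 of S1, replicate 3 of S2, replicate 3 of S3_S and replicate 3 of S3_C had pairwise correlations of 0.203 to 0.514 between their deviations, and no label ties these 4 libraries. In 3 of them the photosynthesis share of FPKM was the highest and the ribosome share the lowest of the group, with 1.81 and 4.07% in replicate 1 of S1, 0.607 and 2.88% in replicate 3 of S2, and 0.318 and 2.4% in replicate 3 of S3_C. In replicate 3 of S3_S both were in the middle of the group (1.41 and 2.42%).

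Leaving out replicate 1 of S3_S brought 298 interaction calls, 83 of them positive and 215 negative, and leaving out replicate 1 of S1 brought 224, 123 positive and 101 negative. GAMMA-VPE, a vacuolar processing enzyme, was at 1.63 to 3.99 FPKM in S1, 5.42 to 21 in S2, 19.2 to 25.6 in S3_S and 33.5 to 104 in S3_C, apart in both pairs, with a colour effect of 1.71 (limma adjusted p = 0.0122) that was not called after scaling (limma adjusted p = 0.0541).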
